A study of Mus musculus with 6 samples.

Results

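The glycoprotein-binding F-box genes are Fbxo2, Fbxo6, Fbxo44, Fbxo17 and Fbxo27. They were taken by gene symbol, and all 5 were found among the 23412 rows of the deposited table. They were chosen because Fbxo2 and Fbxo44 had lower values in HN than in R1. All values of this family in HN against R1 are therefore given as a description, with no p-value, and counts of calls that include them support nothing about them. RNA-seq was performed on undifferentiated mouse embryonic stem cells (mESCs), with 3 libraries of R1 and 3 libraries of HN. R1 cells are the parental wild type line. HN cells carry the genotype Htt-/-, in which the promoter and exon 1 of Htt, the gene for huntingtin, were deleted. The labels give the strain as 129Sv for both lines. Both lines were grown without feeder cells on gelatin in serum medium with LIF and inhibitors of FGF/VEGF receptors, MEK and GSK3. Replicates of the same number shared a collection date, and each date gave 1 library per line. Each genotype was represented by 1 cell line, so that loss of Htt and other differences between the lines cannot be told apart.

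F-box proteins are the substrate receptors of SCF ubiquitin ligases, which also contain Skp1, Cul1 and Rbx1. The F-box binds Skp1, and a second domain holds the protein to be ubiquitinated. In the family described here, that second domain is related to a sugar-binding fold. Fbxo2 (also called Fbs1) and Fbxo6 (Fbs2) bind high-mannose N-glycans, which mark glycoproteins that were made in the endoplasmic reticulum (ER). Both proteins act in ER-associated degradation (ERAD), in which misfolded glycoproteins are returned to the cytosol and sent to the proteasome. Fbxo2 is best known from neurons, and Fbxo6 is expressed in many tissues. Fbxo27 has been linked to the ubiquitination of glycoproteins of damaged lysosomes, whereas the glycan binding of Fbxo44 and Fbxo17 is less well established.

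On chromosome 4, 3 of these genes lie side by side (build GRCm38, annotation GENCODE M21). Fbxo6 extends from 148145716 to 148152140 on the minus strand, Fbxo44 from 148152800 to 148160482 on the minus strand, and Fbxo2 from 148160621 to 148166424 on the plus strand. Fbxo6 and Fbxo44 are 659 bp apart. Fbxo44 and Fbxo2 are transcribed away from each other, and only 138 bp lie between their annotated 5′ ends. The other pair lies on the plus strand of chromosome 7, Fbxo27 from 28692849 to 28699338 and Fbxo17 from 28716804 to 28738144, with 17465 bp between them. No exon base of the 5 genes is shared with another annotated gene. Of the 50-base stretches of their transcripts, 0% also occur in another gene for Fbxo2, Fbxo6, Fbxo44 and Fbxo27, and 0.157% for Fbxo17. The library kit does not mark the strand of a read.

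Sequences before a RefSeq start site of the 3 chromosome 4 genes are shown because the start sites of Fbxo2 and Fbxo44 lie close together and both genes had lower values in HN. They were taken from RefSeq (GRCm38.p6), are written 5′ to 3′ on the strand of the gene, and leave out annotated exons of that gene only. Capitals mark the GC box GGGCGG, the core letters bound by Sp1 family factors, searched on both strands. The stretch for Fbxo2 is chr4:148160418-148160620, plus strand. Those for Fbxo44 and Fbxo6 are chr4:148160095-148160315 and chr4:148152141-148152385, both minus strand. The stretch of Fbxo44 lies before its most upstream RefSeq start but inside the gene as GENCODE annotates it. That of Fbxo2 begins inside Fbxo44, which ends at 148160482, and takes in the 138 bp between the genes. Exon bases of Fbxo44 were not left out of the Fbxo2 stretch. RefSeq gives 1 window for Fbxo2 and 3 each for Fbxo44 and Fbxo6, and the stretches come from the most upstream window of each gene.
Fbxo2: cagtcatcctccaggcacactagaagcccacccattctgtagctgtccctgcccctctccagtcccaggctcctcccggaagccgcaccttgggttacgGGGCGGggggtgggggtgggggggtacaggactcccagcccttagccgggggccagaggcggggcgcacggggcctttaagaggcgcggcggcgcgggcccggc
Fbxo44: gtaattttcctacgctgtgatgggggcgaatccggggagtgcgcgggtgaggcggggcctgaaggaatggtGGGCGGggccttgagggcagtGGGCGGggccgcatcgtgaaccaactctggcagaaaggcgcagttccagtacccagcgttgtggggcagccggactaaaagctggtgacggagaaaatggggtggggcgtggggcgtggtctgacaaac
Fbxo6: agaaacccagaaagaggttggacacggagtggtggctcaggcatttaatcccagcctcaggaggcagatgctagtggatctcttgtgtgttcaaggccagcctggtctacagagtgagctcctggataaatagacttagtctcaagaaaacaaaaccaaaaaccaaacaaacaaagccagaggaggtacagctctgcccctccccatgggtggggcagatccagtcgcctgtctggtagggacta
The printed stretch of Fbxo2 has 1 GC box and 14 CpG dinucleotides in 203 bases. That of Fbxo44 has 2 GC boxes and 16 CpGs in 221 bases, and that of Fbxo6 has 0 GC boxes and 2 CpGs in 245 bases. The RefSeq start sites of Fbxo44 and Fbxo2 are 574 bp apart, so these windows do not overlap and 73 bases lie between them. In the full windows, which run from 250 bases before to 50 bases after the start, Fbxo2 has 21 CpGs, against a median of 7 over 32851 mouse promoters. The 3 windows of Fbxo44 have 9 to 22 CpGs and 0 to 3 GC boxes, and those of Fbxo6 have 5 to 24 CpGs and 0 to 1 GC boxes. GGGCGG was found in 35.7% of these promoters. The TATA box letters TATAAA are in 13.6% of all promoters and the E-box letters CACGTG in 7.15%, and neither was found in any window of the 5 genes. The ER stress response element (ERSE) is in 0.119% of promoters and was also in no window of these genes. The CCAAT box, in 37.4% of promoters, was found in a window of Fbxo44, Fbxo17 and Fbxo27. These are matches of letters in a window only.

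The libraries had 1640391 to 3866717 reads on genes after duplicate removal, and a gene with 3 reads corresponded to between 2.13 and 4.04 normalized counts. Htt, the deleted gene, had 229 ± 29.0 normalized counts (SD, n = 3) in R1 and 43.5 ± 22.0 in HN, a log2 fold change of -2.52 (limma, adjusted p = 0.0141). All 10 pluripotency markers examined were detected and 0 were called, with or without the block or by DESeq2 or edgeR, while 3 had an unadjusted p under 0.05 without the block. Pou5f1, which encodes Oct4, had means of 2967 in R1 and 2979 in HN, whereas Zfp42 had 2092 ± 258 and 1209 ± 129 without overlap (limma adjusted p = 0.195, with the block 6.37e-08, by DESeq2 0.00644). With the block, 1 marker passed the adjusted threshold lower, Zfp42, and 5 passed it higher, Nanog, Esrrb, Klf4, Tfcp2l1 and Dppa5a.

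Fbxo2 showed the largest difference between the lines within the family. R1 replicates 1, 2 and 3 had 175, 83.6 and 60.7 normalized counts, and the HN replicates in the same order had 35.3, 31.9 and 22.7. The 3 HN libraries were thus below all R1 libraries, and R1 replicate 1 stood well above the other R1 libraries. The mean was 106 ± 60.3 (SD, n = 3) in R1 and 30.0 ± 6.49 in HN, a ratio of 3.55. These values rest on 164, 113 and 45 reads in R1 and 29, 45 and 21 reads in HN. The log2 fold change, HN minus R1 on the log2(normalized count + 1) scale, was -1.67 (SE 0.37), and libraries of one date differed by -2.27, -1.36 and -1.38. By log2 fold change, Fbxo2 stood in position 41 from the lowest of the 14276 genes tested.

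Fbxo44, its head-to-head neighbour, had 44.7, 37.7 and 24.3 normalized counts in R1 and 17.0, 17.0 and 15.2 in HN. The lines again did not overlap, and the HN libraries lay close together. The means were 35.6 ± 10.4 in R1 and 16.4 ± 1.07 in HN (SD, n = 3), a ratio of 2.17, from 42, 51 and 18 reads against 14, 24 and 14 reads. The log2 fold change was -1.03 (SE 0.35), with pair differences of -1.34, -1.10 and -0.64. As with Fbxo2, and with Fbxo6 below, the order of the R1 libraries was replicate 1, 2 and 3 from high to low.

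Fbxo6, the second ERAD receptor, had the highest counts of the family. It had 262, 251 and 210 normalized counts in R1 and 179, 154 and 193 in HN. The HN libraries were below the R1 libraries, but the distance between HN replicate 3 and R1 replicate 3 was small. Means were 241 ± 27.2 and 175 ± 19.7 (SD, n = 3), a ratio of 1.38, and the log2 fold change was -0.46 (SE 0.20). Within pairs the differences were -0.55, -0.70 and -0.12. Going along the chromosome from Fbxo6 to Fbxo44 to Fbxo2, the log2 fold changes were thus -0.46, -1.03 and -1.67, and whether neighbouring genes in this order differ was not tested.

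The pair on chromosome 7 was expressed at a low level. Fbxo27, the lysosome-linked receptor, had 16.0, 17.0 and 18.9 normalized counts in R1 and 12.2, 7.09 and 14.1 in HN. The lines did not overlap, but each value rested on only 10 to 23 reads. The R1 mean was 17.3 ± 1.47 and the HN mean 11.1 ± 3.61 (SD, n = 3). Fbxo27 had a log2 fold change of -0.64 (SE 0.44) and pair differences of -0.37, -1.16 and -0.40. Fbxo17 had 8.52, 13.3 and 16.2 in R1 and 8.52, 9.21 and 11.9 in HN, from 7 to 18 reads per library. Here the lines overlapped, and the replicate 1 libraries had the same value. The means were 12.7 ± 3.87 and 9.88 ± 1.79, and the log2 fold change of -0.30 (SE 0.50) was smaller than its error.

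**Figure D1:**
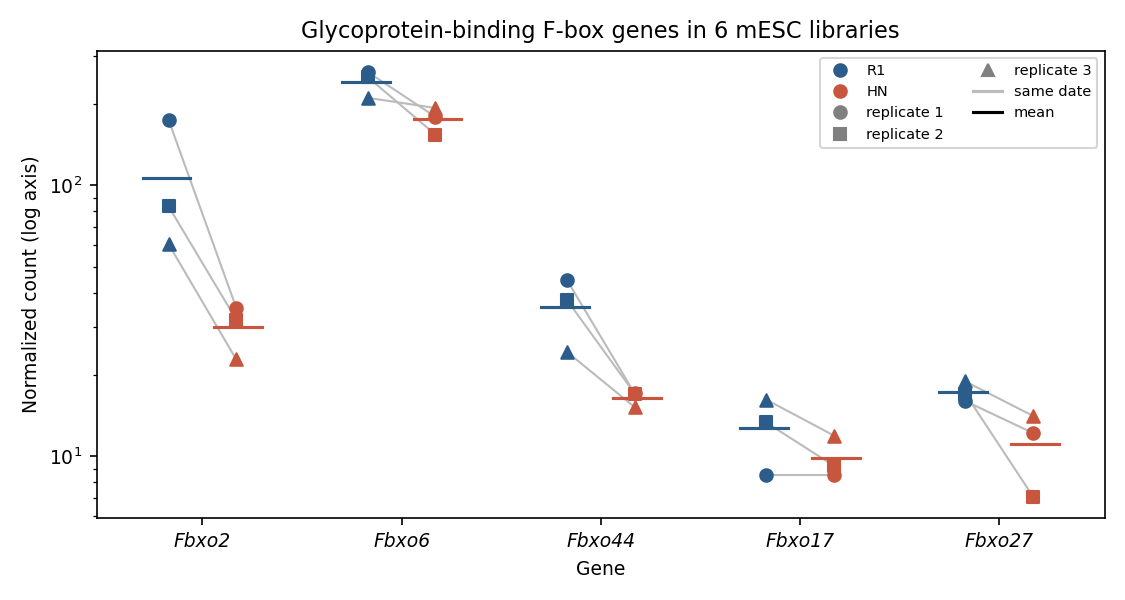
Normalized counts (log axis) of the 5 glycoprotein-binding F-box genes in each R1 (blue) and HN (red) library; marker shapes are replicate numbers, grey lines join libraries of the same date and bars are means. All HN points lie below all R1 points for Fbxo2, Fbxo6, Fbxo44 and Fbxo27, and the lines overlap for Fbxo17.

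In all, 5 of 5 members had a negative log2 fold change, as did 7354 of the 14276 genes tested. In 4 of 5 members all HN libraries were below all R1 libraries, and 4 of 5 were lower in HN in all same-date pairs. Over all genes tested, HN was below R1 without overlap in 5.54%, and lower in all same-date pairs in 21.1%. A gene is described as called when its adjusted p was under 0.05 and its log2 fold change was above 1 or below -1. By limma, 0.126% of genes were called lower in HN, and 0 of the 5 members were among them. With the replicate number as a block, 1.04% of genes were called lower, among them 2 members, Fbxo2 and Fbxo44. Of the 12435 genes given an adjusted p by DESeq2 on the recovered reads, 0.249% were called lower, among them Fbxo2. On the same reads edgeR called 0.126% of genes lower and 0 members, and with the block 1.06% of genes, among them Fbxo2 and Fbxo44. In either direction, 0.245% of genes were called by limma, 1.95% with the block and 0.611% of those 12435 genes by DESeq2. An unadjusted p under 0.05 was reached by 5.91% of genes without the block and by 21.6% with it, and an adjusted p under 0.05 at any fold change with the block by 9.48%. Since this contrast chose the members, these counts are no evidence about them. With R1 replicate 1 left out, the log2 fold change of Fbxo2 was -1.24, and it was -2.0 with R1 replicate 3 left out. The direction was negative for each of the 5 genes under every alternative tried, all of which reuse this contrast.

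**Figure D2:**
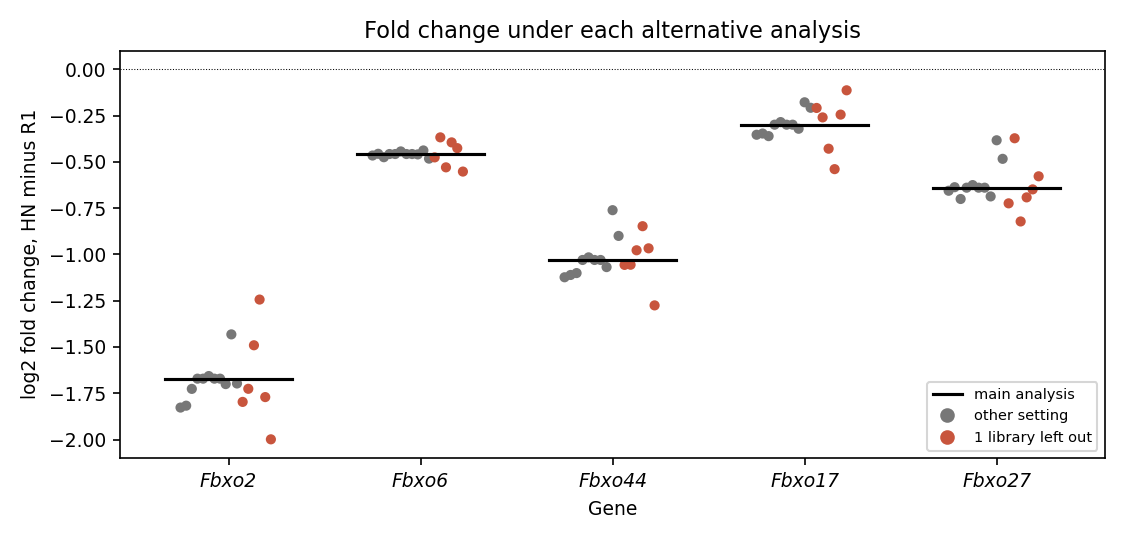
Log2 fold change (HN minus R1) of each gene in the main analysis (black bar), under other settings (grey points) and with 1 library left out (red points). No point is above 0; Fbxo2 ranged from -2.0 to -1.24 and Fbxo17 from -0.54 to -0.11.

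Levels of different genes were compared after dividing by the length of all exons of a gene. This length was 1288 bases from 1 transcript for Fbxo2, 2207 from 8 for Fbxo6 and 3024 from 10 for Fbxo44. The order of genes depends on these lengths. On this scale of normalized counts per kb of exon, the order in R1 was Fbxo6 with a mean of 109, Fbxo2 with 82.5, Fbxo44 with 11.8, Fbxo27 with 5.64 and Fbxo17 with 5.07. In HN the means were 79.4 for Fbxo6, 23.3 for Fbxo2, 5.42 for Fbxo44, 3.96 for Fbxo17 and 3.63 for Fbxo27. Fbxo6 and Fbxo2 were thus the main receptors of the family by RNA in both lines. They overlapped in R1, where the level of Fbxo2 relative to Fbxo6 was 1.14, 0.571 and 0.494 in replicates 1, 2 and 3. In HN it was 0.338, 0.355 and 0.202, with Fbxo6 the higher gene in each library. Without division by length, Fbxo2 was below Fbxo6 in every library of both lines. Fbxo27 and Fbxo17 were not separated by more than their spread in either line.

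The summed level of the 5 genes per kb of exon was 278, 202 and 163 in R1 and 121, 106 and 119 in HN. Every HN library was below every R1 library, with means of 214 ± 58.3 and 116 ± 8.34 (SD, n = 3). The share of Fbxo2 in this sum was 48.8%, 32.1% and 28.9% in R1 and 22.6%, 23.3% and 14.8% in HN. The share of Fbxo6 was 42.7%, 56.3% and 58.4% in R1 and 66.7%, 65.7% and 73.2% in HN. The lower sum and the larger share of Fbxo6 in HN include the same Fbxo2 values that chose the family, and were not tested.

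**Figure D3:**
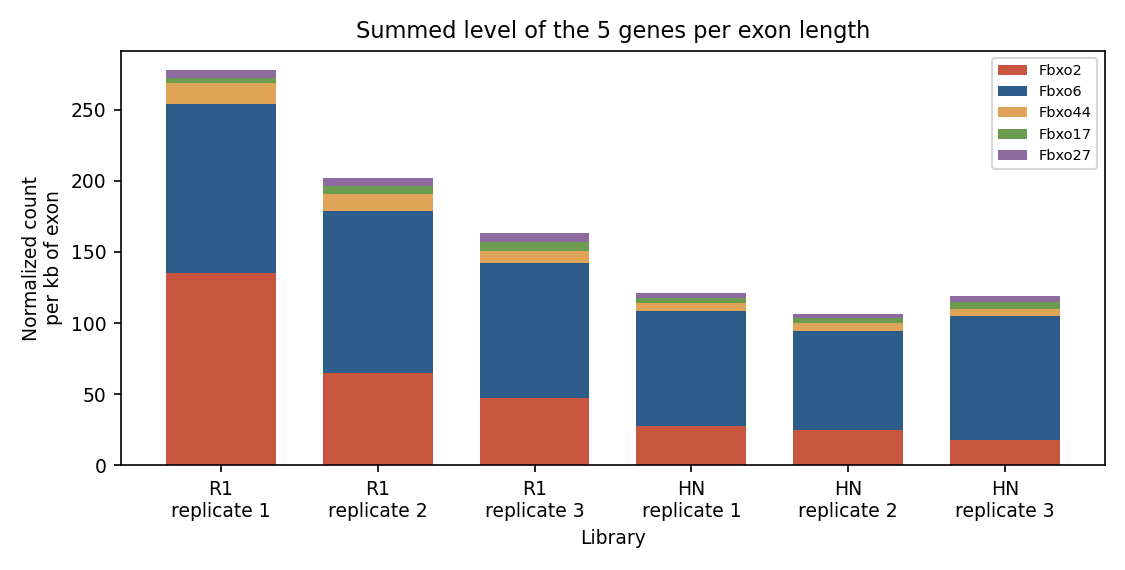
Stacked level of the 5 genes in each library, as normalized counts per kb of exon. The sums are 163 to 278 in R1 and 106 to 121 in HN, and the Fbxo2 part (red) is larger in every R1 library than in any HN library.

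Collection date is a measure that did not choose the genes. In a limma model with line and date, Fbxo2 differed between the 3 dates (F-test, adjusted p = 0.00344). It was highest in replicate 1 and lowest in replicate 3 in both lines, and over both lines replicate 3 was lower than replicate 1 by a log2 difference of -1.06 and replicate 2 by -0.60. Over all genes, 46.0% passed this test, and 1 of the 5 members did. The adjusted p of the others was 0.395 for Fbxo44, 0.501 for Fbxo17, 0.582 for Fbxo27 and 0.705 for Fbxo6. The result for Fbxo2 rested on R1 replicate 1, without which the adjusted p was 0.165.

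Across the 6 libraries, Fbxo2 and Fbxo44 had a Pearson correlation of 0.971 on the log2 scale, with 16 of all tested genes closer to Fbxo2 and 21 closer to Fbxo44. The correlation with Fbxo6 was 0.846 for Fbxo2 and 0.903 for Fbxo44, and that of Fbxo2 with Fbxo17 was -0.04. The genes most similar to Fbxo2 were Lsm7 (0.994), Limk2 (0.991) and Coq9 (0.989). Those most similar to Fbxo44 were S100a10 (0.999), Frg1 (0.996) and Rab2a (0.994). S100a10, for example, had 367, 323 and 191 normalized counts in R1 and 129, 130 and 119 in HN. S100a10 was called lower with the block and not without it. With 6 libraries that share dates and lines, these correlations are descriptive. Fbxo2 and Fbxo44 were both chosen for lower values in HN, and that difference enters their correlation. It is therefore no evidence that the 2 genes vary together.

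Genes around the cluster were examined next, since they were not chosen by their values. On chromosome 4, 17 other genes are annotated within 250 kb of the cluster. Of these 9 were matched by name, all on the Fbxo6 side, and 7 passed the filter on low values. For this list and those below, the shares of all tested genes called were 0.245% by limma and 1.95% with the block. By DESeq2 the share was 0.611% of the 12435 genes to which it gave an adjusted p. Some genes of the lists below, such as Capn12, had none. The shares at an unadjusted p under 0.05 were 5.91% by limma and 21.6% with the block. By limma 0 of the 7 were called, with or without the block. An unadjusted p under 0.05 was reached by 0 of them without the block and by 1, Agtrap, with it; DESeq2 and edgeR on the recovered reads also called 0. Their log2 fold changes ranged from -0.25 for Plod1, a collagen lysyl hydroxylase, to 0.24 for Clcn6, an endosomal chloride transporter, with a median of 0.01. Mad2l2, whose end lies next to that of Fbxo6, had 108 ± 6.97 normalized counts in R1 and 101 ± 13.6 in HN (SD, n = 3), a log2 fold change of -0.11 (SE 0.21). The values were -0.24 for Agtrap, 0.22 for Draxin and 0.01 for 2510039O18Rik. In all 7 genes the lines overlapped. Agtrap was lower in HN in all 3 same-date pairs, with an SE of 0.11 and an adjusted p of 0.208 with the block. Nppa and Nppb were below the filter.

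On chromosome 7, 30 other genes are annotated within 250 kb of Fbxo27 and Fbxo17, of which 19 were matched by name and 12 tested. By limma 0 of these were called, with or without the block, 1 had an unadjusted p under 0.05 without the block and 2 with it, and DESeq2 and edgeR called 0. The log2 fold changes ranged from -1.22 (SE 1.08) for Capn12, a gene with at most 10 reads per library, to 0.77 (SE 0.28) for Rinl, a Rab5 exchange factor. Rinl had 103 ± 31.2 normalized counts in R1 and 176 ± 53.8 in HN, with an adjusted p of 0.651 and, with the block, of 2.36e-04. The median of the 12 genes was 0.09. All HN libraries were above all R1 libraries in 2 of the 12, Rinl and Nfkbib, and the lines overlapped in 10. Over all tested genes, HN was above R1 without overlap in 746 of 14276. Of the genes below the filter, the transcribed pseudogene 1700028B04Rik had 11, 8 and 3 reads in R1 and 0, 1 and 0 reads in HN.

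**Figure D4:**
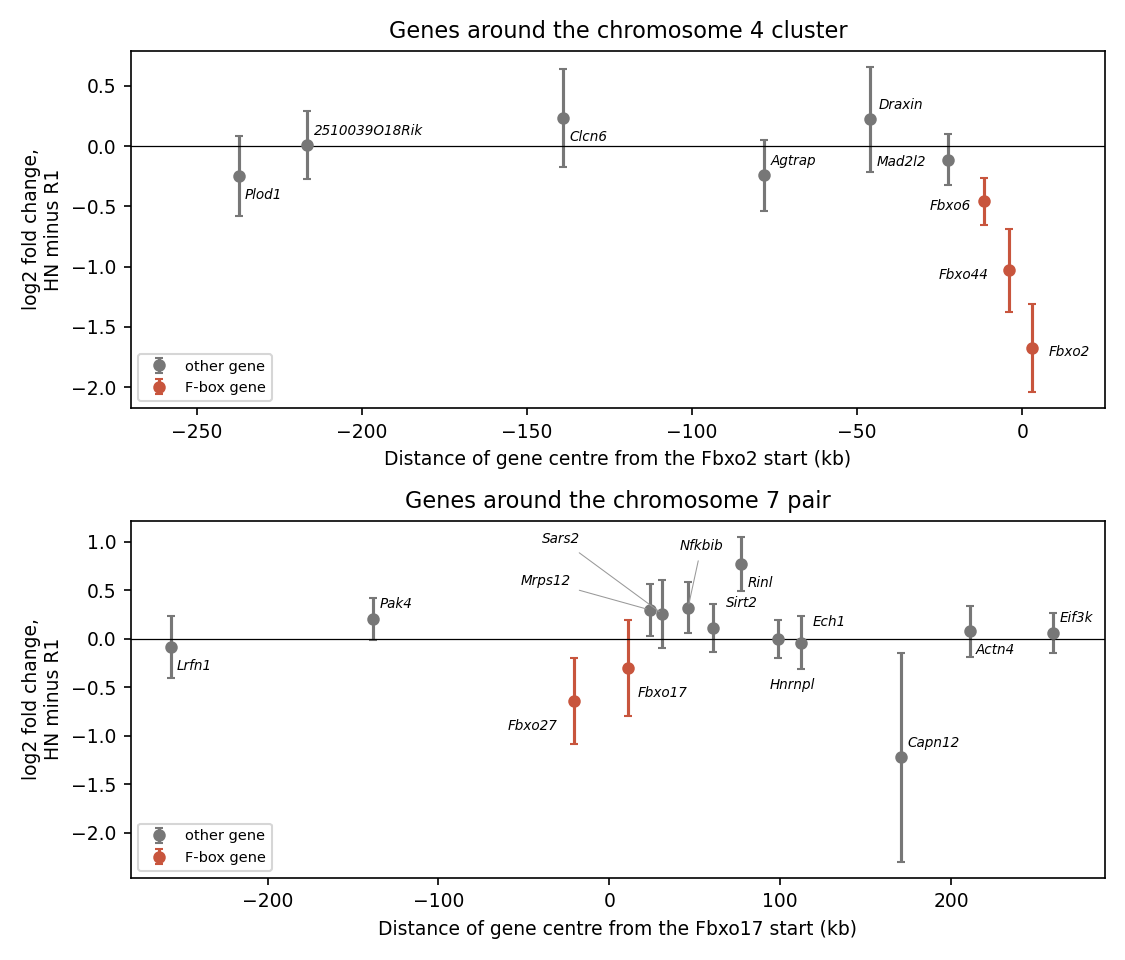
Log2 fold change (HN minus R1, with SE) of the tested genes named in the text on chromosome 4 and of all tested genes on chromosome 7 within 250 kb of the F-box genes, by distance in kb from the start of Fbxo2 (top) or Fbxo17 (bottom). On chromosome 4 the other genes shown lie between -0.25 and 0.24, all on the Fbxo6 side. Fbxo6, Fbxo44 and Fbxo2 are at -0.46, -1.03 and -1.67, and the F-box genes were chosen with this contrast known.

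The rest of the F-box family was compared in the same way. The deposited values include 74 other genes with Fbxo, Fbxl or Fbxw names or known as F-box genes, of which 59 were tested. By limma 0 were called, with or without the block, while 3 had an unadjusted p under 0.05 without the block and 11 with it, and DESeq2 and edgeR called 0. Their median log2 fold change was 0.04, against -0.01 over all genes tested, and the range was -0.98 for Fbxl7 to 0.80 for Fbxw4. Of these, 24 were below 0 and 35 above 0. In a shorter list of 14 well-studied receptors, Fbxo15, an F-box gene of embryonic stem cells, was the lowest. It had 397 ± 32.8 normalized counts in R1 and 217 ± 36.7 in HN (SD, n = 3), a log2 fold change of -0.88 (SE 0.20, limma adjusted p = 0.154). It passed the adjusted threshold with the block and by DESeq2 (adjusted p = 0.0180), though its fold change was too small to be called. Skp2, the receptor of the cell cycle inhibitor p27, followed at -0.34. Fbxo11 was among the highest, at 0.25. The median of the 14 was 0.03.

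Genes of the SCF machinery that these receptors need were set beside all tested genes. Of all tested genes, limma called 0.245% without the block and 1.95% with it. An unadjusted p under 0.05 was reached by 5.91% and 21.6% of all tested genes. Of 26 genes for SCF core subunits, ubiquitin-conjugating enzymes, neddylation and the COP9 signalosome, all were tested, and limma called 0 with or without the block. At an unadjusted p under 0.05 there were 0 without the block and 5 with it, and DESeq2 and edgeR called 0. The median log2 fold change was -0.01. Cops7b, a signalosome subunit, was lowest at -0.29, followed by Dcun1d5, a neddylation factor, at -0.27. Ube2r2, an E2 enzyme of SCF ligases, was highest at 0.40 and Cand1, which exchanges F-box receptors on Cul1, followed at 0.37. These last genes passed the adjusted threshold with the block (adjusted p = 0.0294 and 0.00447), without reaching the fold change for a call. Chosen as the core of the complex after the values were seen, Skp1a had 901 ± 119 normalized counts in R1 and 994 ± 119 in HN (SD, n = 3). Rbx1 had 206 ± 32.7 and 202 ± 29.1, and Cul1 had 468 ± 203 and 453 ± 131.

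ERAD was represented by 41 genes, of which 39 were matched by name and 38 tested. By limma 0 were called, with or without the block, 1 had an unadjusted p under 0.05 without the block and 9 with it, and DESeq2 and edgeR called 0. Their log2 fold changes had a median of -0.02, with 22 below 0 and 16 above. The highest was Trim13, an ER-anchored ubiquitin ligase, with 140 ± 26.6 normalized counts in R1 and 225 ± 50.7 in HN (SD, n = 3). Its log2 fold change was 0.67 (SE 0.24), with an adjusted p of 0.620 and, with the block, of 0.000473. It was followed by Os9, an ER lectin that reads trimmed glycans of misfolded proteins, at 0.54 (adjusted p = 0.943, with the block 0.0146). Herpud1, a stress-induced scaffold of the Hrd1 ligase, was among the lowest at -0.47 with an SE of 0.28, and did not pass with the block.

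Proteins reported as substrates or partners of these receptors were examined by the RNA of their genes. All 11 were tested; without the block limma called 0, 1 had an unadjusted p under 0.05, and DESeq2 and edgeR called 0. With the block 1 was called, Grin1, which encodes the NMDA receptor subunit NR1, a glycoprotein bound by Fbxo2. It had 41.8 ± 24.1 normalized counts in R1 and 21.7 ± 15.1 in HN (SD, n = 3), and the lines overlapped. The log2 fold change was -1.12 (SE 0.67), with an adjusted p of 1.0 and, with the block, of 0.00855. Ero1l, the ER oxidase linked to Fbxo6, was higher by 0.64 on the log2 scale (adjusted p = 0.811, with the block 0.000166). For the other Fbxo2 and Fbxo6 partners the log2 fold change was -0.17 for the checkpoint kinase Chek1, -0.10 for the integrin Itgb1, 0.26 for the secretase Bace1 and 0.30 for the insulin receptor Insr. It was 0.13 for Lamp1 and 0.23 for Lamp2, the lysosomal membrane glycoproteins, and 0.14 for Brca1, 0.08 for Rgs2 and 0.09 for Gsk3b, which encode proteins linked to Fbxo44 or Fbxo17. The median of the 11 was 0.13.

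**Figure D5:**
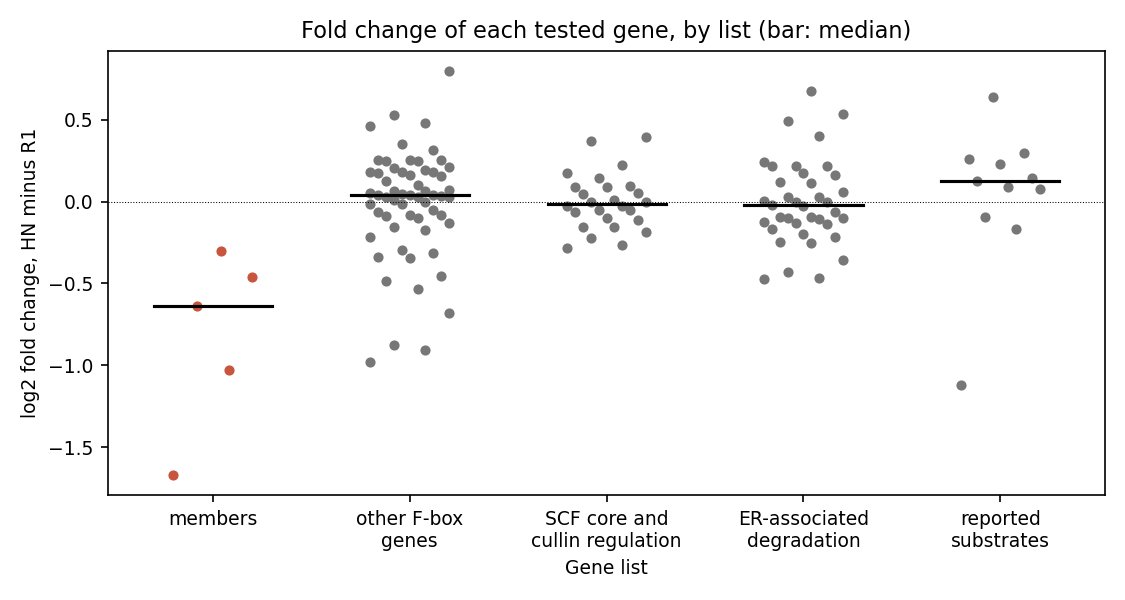
Log2 fold change (HN minus R1) of each tested gene in the glycoprotein-binding F-box family (red) and in other F-box genes, SCF genes, ERAD genes and reported substrates (grey), with the median as a bar. The medians of the grey lists lie between -0.02 and 0.13; the red points were chosen with this contrast known.

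Markers of other cell types were measured because Fbxo2 is a gene of neurons and other differentiated cells. In bulk RNA, fewer cells of a type and less RNA per cell cannot be told apart. The 10 neural markers summed to 301 to 375 normalized counts in R1 libraries and 288 to 401 in HN libraries. Of the 7 neural markers tested, 5 had a log2 fold change above 0 and 2 below 0, with a median of 0.30. Among them, Tubb3, the neuronal tubulin, had 201 ± 67.9 in R1 and 117 ± 33.2 in HN (limma adjusted p = 0.715, with the block 0.000745). Olig2, a transcription factor of oligodendrocyte and motor neuron progenitors, had 12.7 ± 13.6 in R1 and 69.9 ± 24.3 in HN and was called higher with the block and by DESeq2, but not by limma without the block. The 8 fibroblast markers summed to 78.4 to 189 in R1 and 38.3 to 98.6 in HN, and 2 of them were called lower with the block and not without it. These were Thy1 with 33.3 ± 8.16 in R1 and 12.4 ± 7.67 in HN, and Pdgfrb with 60.5 ± 22.7 and 21.6 ± 5.52 (SD, n = 3). Of the 6 fibroblast markers tested, 4 had a log2 fold change below 0. The 2 above 0 were Col3a1 at 0.11 and Pdgfra at 0.01. In 4 of the 6 the lines overlapped, so the lower sum is not shared by the whole list. The collagen gene Col1a1 was near the limit of detection, with means of 8.19 and 6.21. Endoderm markers summed to 36.2 to 156 in R1 and 34.7 to 139 in HN, and mesoderm markers to 82.0 to 170 and 164 to 265, with T called higher with the block. No marker was at 0 in all libraries. The part of other cell types in the values of Fbxo2 and Fbxo44 was not tested.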

How the data were processed

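RNA-seq libraries of R1 and HN mESCs (TruSeq RNA v2, paired end) were analysed from the deposited table. For each gene the authors deposited a normalized signal, made by alignment to mm10 with STAR, removal of PCR duplicates with Picard, counting with HTSeq and division by DESeq2 size factors. Tool versions, the annotation and the strand setting are not given in the sources used here. Divided by what 1 read is worth, 100% of values were whole within a tolerance of 0.01, so reads were recovered for depth and for the count-based alternatives. Reads without molecular identifiers need not be independent molecules. The name of 27 rows is a date, and none of them was used by name.

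Values were compared on the log2(normalized count + 1) scale with limma 3.58.1 in R 4.3.3 (empirical Bayes with a variance trend). The 14276 genes with a mean of at least 5 were tested, with Benjamini-Hochberg adjustment over all of them. Genes with an adjusted p under 0.05 and a log2 fold change beyond 1 in either direction were called, 17 higher and 18 lower in HN (27 and 18 after median centring). On this scale changes of low genes are understated. Collection date was tested with an F-test in a model with line and replicate number. The scripts were tested on simulated data with 200 changed genes.

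Replicates of one number share a date in the labels, and their deviations from the line means correlated across genes (0.250, 0.688 and 0.768 for replicates 1, 2 and 3), so the numbers pair the libraries. R1 replicate 1 correlated more with HN replicate 2 (0.339) than with HN replicate 1. The study names no block, and the fit with the replicate number as a block was an alternative. It called 130 genes higher and 148 lower. Other alternatives were edgeR 4.0.16 (quasi-likelihood, with and without the block) and DESeq2 1.42.0 on recovered reads, a pseudocount of 0.1 or 10, a minimum mean of 50 or none, centring on the median, quantile normalization, a fit without the variance trend, and the removal of each library in turn.

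The F-box genes and the gene lists were chosen with earlier results of these data known. Named were all 5 members, listed genes called with or without the block, the 2 highest and 2 lowest of the ERAD, SCF and shorter F-box lists, all reported substrates, genes within 250 kb, Htt, and the 3 genes most correlated with Fbxo2 and with Fbxo44. Some genes that this rule names are not reported here. Marker genes and the extremes of the full F-box list are named where their values are described. Positions are from GENCODE M21, and promoter windows are from RefSeq. The libraries of a line came from batches of cells collected on different dates.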

Additional observations from a re-analysis of the deposited data

How the results depend on the processing

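The log2 fold changes of Fbxo2, Fbxo6, Fbxo44, Fbxo27 and Fbxo17 were negative in each of the 17 alternative settings in which the gene was tested (16 for Fbxo44, Fbxo27 and Fbxo17). They moved by less than the spread between replicates. The block, the minimum mean and the variance trend cannot change the limma fold change of a gene here. All settings reuse the contrast that chose the family, so the shared direction is no evidence about these genes. Leaving out 1 library gave -2.0 to -1.24 for Fbxo2 and -1.28 to -0.85 for Fbxo44, and a pseudocount of 10 gave -0.76 for Fbxo44. Without R1 replicate 3, limma with no block called 25 genes lower, among them Fbxo2, which this contrast had chosen. Called ERAD, SCF and neighbouring genes numbered 0 in all 17 settings. A call needs a log2 fold change beyond 1, which in the main analysis only Capn12 among them had, so these counts could hardly differ. With the block in limma, 2 ERAD genes, 2 SCF genes and 1 chromosome 7 neighbour passed the adjusted threshold without a call. Called substrates numbered 0 except for 1 with the replicate block in limma and 1 in edgeR. Counts over all genes depended on the setting. Genes called higher and lower numbered 17 and 18 in the main analysis, 130 and 148 with the replicate block, 132 and 152 by edgeR with that block, and 45 and 31 by DESeq2. Median centring gave 27 higher, and limma without the variance trend gave 0 and 0, with 767 genes at an unadjusted p under 0.05. Leaving out 1 library gave 3 to 31 higher and 4 to 26 lower. The higher calls were 3 without HN replicate 1, 5 without R1 replicate 1 and 31 without R1 replicate 3, and the lower calls were 10 without HN replicate 1 and 4 without R1 replicate 1. Genes that differed between dates numbered 6569, with 4090 at a mean of at least 50, 4203 after quantile normalization, and 3270 to 7661 with 1 library left out (3270 without HN replicate 2, 3594 without R1 replicate 2). Members that differed by date numbered 0 to 1 in these fits, 0 without R1 replicate 1. Some of those fits had fewer genes or libraries, and the cause of these shifts was not tested. The replicate block changed the calls given beside the results (Fbxo2, Fbxo44, Grin1, S100a10, Thy1, Pdgfrb, Olig2 and T) and no other call in the lists described. Fbxo17 and Fbxo27 rest on 7 to 23 reads per library, which limits what can be seen in them.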
